A study of Mus musculus with 4 samples.

Results

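The genes described here are 30 genes of G2 phase and mitosis, a list set by gene function, read in sorted mouse genital ridge cells with and without HP1 gamma, a heterochromatin protein encoded by Cbx3. Each gene was represented by 1 probe, the one with the highest mean signal over the 4 arrays. Of the 30 genes, 29 had a named probe, among 18322 named genes on the array, and Prc1 had none. All 29 were well above background on all 4 arrays, so all of them were tested and none entered through 1 genotype alone. Pools of HP1 gamma -/- embryos, which carry a gene-trap allele, were set against pools of wild-type embryos. Embryos of both genotypes also carried a Blimp1-mVenus transgene, which marks primordial germ cells, the precursors of eggs and sperm. At embryonic day 11.5, cells positive for mVenus were isolated on a flow cytometer out of the genital ridges, 500 to 3500 cells per embryo, and RNA of 5 or 6 embryos of 1 genotype was combined into a pool. There were 2 independent pools of each genotype, each on 1 single-colour Agilent array of the same slide. The sort went by the reporter, so a pool can hold any cell type in which it is active. A level is the log2 of the background-subtracted signal minus the log2 of that array's 75th percentile, so a difference of 1 is 2-fold. Levels of different probes depend on the probe and were not compared with each other.

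A cell enters mitosis when cyclin-dependent kinase 1 (Cdk1), bound to B-type cyclins, is switched on by Cdc25 phosphatases. Polo and Aurora kinases then build the spindle, a checkpoint at the kinetochores holds the cell until every chromosome is attached, and the anaphase-promoting complex ends mitosis by marking cyclin B and securin for destruction. Most of these genes are transcribed as a wave late in the cell cycle, so in a mixed population their mRNA tracks the share of dividing cells. Migratory and gonadal primordial germ cells divide, as do many cells around them at this stage. In RNA pooled from many cells, fewer cells of a type and less RNA per cell cannot be told apart.

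Transcription late in the cycle is known to depend on promoter elements called the cell cycle genes homology region, here searched as TTTGAA or TTCGAA, and on CCAAT boxes that bind the factor NF-Y. Both were searched on both strands, in windows from 250 bases before to 50 bases after each annotated transcription start (RefSeq, GRCm38.p6). The table held 27 windows for 25 of the 30 genes. Ccna2, Aurkb, Tpx2, Kif20a and Cdc25c had no entry. The hexamer was found in 22 of the 27 windows (81.5%), against 19.2% of all 32851 windows. CCAAT was found in 23 of them (85.2%), against 37.4% of all windows. Both elements were found in 21 (77.8%), against 7.52% of all. The wider set of 60 further G2 and mitosis genes stood between these, with the hexamer in 34 of 56 windows (60.7%), CCAAT in 34 (60.7%) and both in 24 (42.9%). A match is a description of the letters and does not show that a factor binds there. The hexamer was absent from the windows of Birc5, Ccnb1, Cenpe, Mad2l1 and Nusap1, which says only that these letters are not in those windows.

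**Figure D1:**
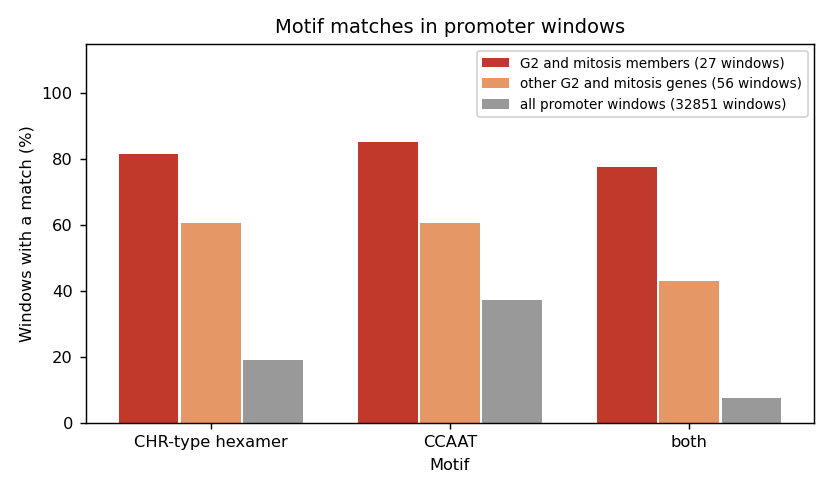
Bars give the percentage of promoter windows with at least 1 match to the homology-region hexamer (TTTGAA or TTCGAA), to CCAAT, or to both, for the G2 and mitosis genes (27 windows), the further genes of that pathway (56 windows) and all windows (32851). The first bar of each trio is the tallest, at 81.5%, 85.2% and 77.8%, and the last is 19.2%, 37.4% and 7.52%.

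The stretch from 110 bases before to 15 bases after the start is shown for 6 genes that carry the results on cyclins, anaphase and chromosome structure below. Capitals mark matches to either element on either strand (for the hexamer TTTGAA or TTCGAA and the reverse form TTCAAA; for the box CCAAT and its reverse form ATTGG), none of which overlap. On GRCm38.p6 they are chr13:100786472-100786596 (minus strand) for Ccnb1, chr9:70421540-70421664 (minus strand) for Ccnb2, chr10:69352898-69353022 (minus strand) for Cdk1, chr4:118437329-118437453 (minus strand) for Cdc20, chr2:164769819-164769943 (plus strand) for Ube2c and chr11:99024175-99024299 (minus strand) for Top2a, each read 5′ to 3′ along the gene.
Ccnb1: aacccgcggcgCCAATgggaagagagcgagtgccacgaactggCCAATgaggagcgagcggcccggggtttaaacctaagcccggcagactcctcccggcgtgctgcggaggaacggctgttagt
Ccnb2: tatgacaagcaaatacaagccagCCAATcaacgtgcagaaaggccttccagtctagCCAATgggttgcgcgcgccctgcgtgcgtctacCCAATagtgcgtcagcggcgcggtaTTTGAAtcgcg
Cdk1: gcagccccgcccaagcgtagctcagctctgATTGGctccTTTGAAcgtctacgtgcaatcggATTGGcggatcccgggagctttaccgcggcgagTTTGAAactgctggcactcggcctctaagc
Cdc20: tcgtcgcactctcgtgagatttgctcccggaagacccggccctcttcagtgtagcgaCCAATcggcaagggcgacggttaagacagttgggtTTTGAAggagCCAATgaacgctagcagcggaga
Ube2c: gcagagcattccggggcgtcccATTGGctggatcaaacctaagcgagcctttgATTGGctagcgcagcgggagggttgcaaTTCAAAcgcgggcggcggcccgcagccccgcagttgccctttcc
Top2a: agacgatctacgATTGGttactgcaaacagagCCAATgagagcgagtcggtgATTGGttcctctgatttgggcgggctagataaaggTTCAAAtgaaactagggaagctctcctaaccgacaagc
The nearest hexamer began 15 bases before the start in Cdk1 and 18 before it in Cdc20, while that of Ccnb2 began 4 bases after it. The stretches of Ccnb2 and Top2a held 3 CCAAT boxes each, and the other 4 stretches held 2.

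The targeted gene was low in both pools labelled HP1 gamma -/-, where Cbx3 read -1.24 and -2.78, against 5.89 and 5.72 in the wild-type pools (limma adjusted p = 0.099). The 75th percentile of the signal was 125 and 291 intensity units on the HP1 gamma -/- arrays of replicates 1 and 2, against 188 and 219 on the wild-type arrays. The HP1 gamma -/- replicates also stood further apart over the 22438 probes tested. The SD of the log2 difference was 0.84 between them and 0.40 between the wild-type replicates. The cell type label was checked with germ cell markers. All 11 with a named probe were well above background in HP1 gamma -/- replicate 1, 3 in HP1 gamma -/- replicate 2, and 10 in each wild-type pool. Dppa3, Ddx4 and Pou5f1, genes that define germ cells at this stage, were among those not well above background in HP1 gamma -/- replicate 2. HP1 gamma -/- replicate 2 therefore stands apart from the others in its germ cell markers, and results are given with and without it. The 14 endothelial and 13 leukocyte markers were well above background in every pool. Relative to the 75th percentile, all 14 endothelial markers had lower means in the HP1 gamma -/- pools. For 13, both of these pools lay below both wild-type pools, where 23.0% of all probes did. Limma called 0 of the 14, and 6 had an unadjusted p under 0.05, where 0.00891% and 7.51% of all probes did. Of 12 gonadal somatic markers, 6 were tested, and 4 of these were well above background on all 4 arrays. The rest entered through the HP1 gamma -/- arrays alone, which favours higher values there. All 6 had higher means, and for 4 both HP1 gamma -/- pools lay above both wild-type pools, where 15.1% of all probes did. Limma called 0 of the 6, with 3 at an unadjusted p under 0.05. The part of cell composition in the genotype contrast was not tested.

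The question the genotypes pose for these genes is whether cells lacking HP1 gamma carried more or less of the mitotic programme. No G2 and mitosis gene differed between the genotypes by the test. Of 29, 21 had a higher mean and 8 a lower mean in the HP1 gamma -/- pools, every difference was under 1.5-fold, and the median difference was 0.09 on the log2 scale, against -0.06 over all tested probes. That median lay within the spread of the list's median level between replicates (SD 0.29). These directions are relative to the 75th percentile of each array. With arrays scaled to spiked-in control probes instead, all 29 means were lower in the HP1 gamma -/- pools, with a median of -0.45 where that of all probes was -0.60, and again 0 were called by limma. Limma called 0 of the 29 at an adjusted p under 0.05, and 0 had an unadjusted p under 0.05, where 0.00891% and 7.51% of all tested probes did. Adjusted p-values of the 29 ran from 0.75 to 1.00. A miss does not show that the genotypes act alike. The 95% interval of the difference lay within 2-fold in either direction for 23 of the 29 and reached beyond it for 6, with half-widths of 0.51 to 1.32. With 2 arrays against 2, an exact permutation test of a single gene cannot give a two-sided p below 0.333, so none was used. Without HP1 gamma -/- replicate 2 the median was 0.28, and without HP1 gamma -/- replicate 1 it was -0.17.

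**Figure D2:**
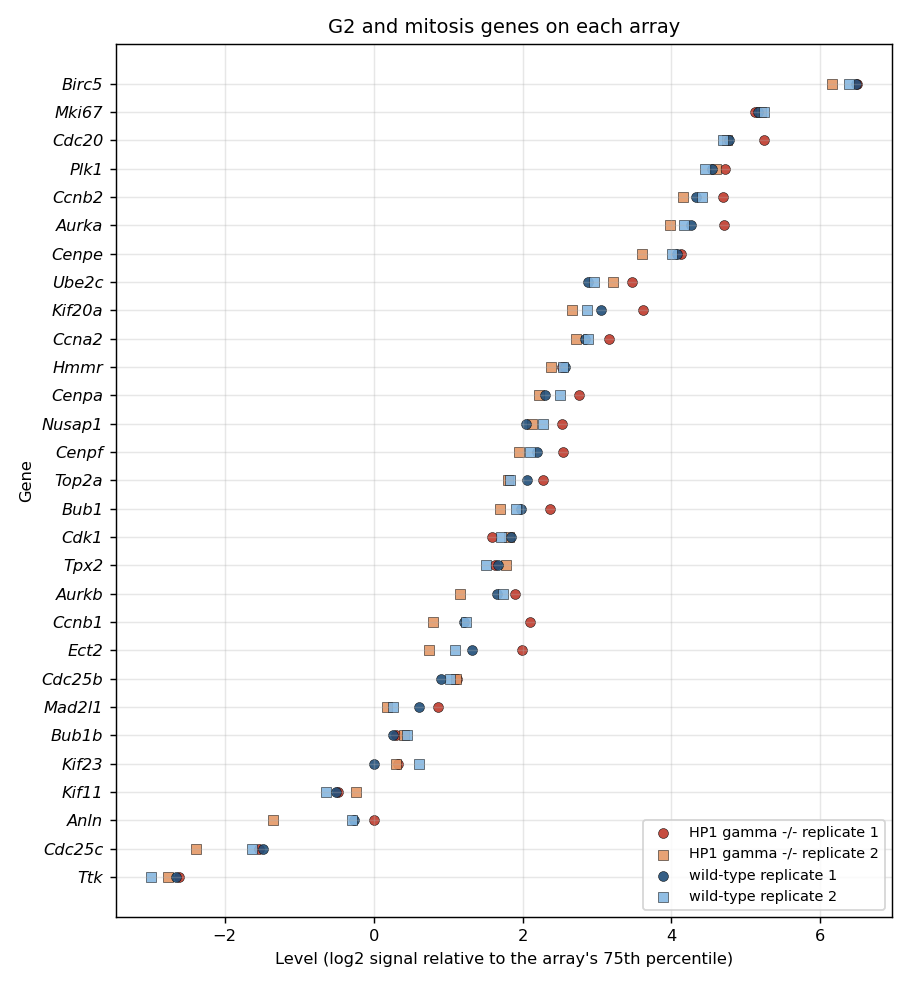
Each row is a G2 and mitosis gene and each point its level on 1 array (log2 signal relative to that array's 75th percentile), with HP1 gamma -/- arrays in red and orange and wild-type arrays in dark and light blue. Rows are ordered by mean level for layout, and probes are not comparable between rows. Points of a row lie close together for most genes, and HP1 gamma -/- replicate 1 is the rightmost and replicate 2 the leftmost in many.

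Few of these genes had pools that did not overlap between genotypes. Both HP1 gamma -/- pools exceeded both wild-type pools for 4 of 29 genes (Ube2c, Kif11, Plk1 and Cdc25b), where 15.1% of all probes did. Both lay below for 1 (Hmmr), where 23.0% of all probes did. With spike-in scaling these counts were 0 higher and 22 lower, where 3.25% and 61.7% of all probes did not overlap in those directions. No difference between these shares was tested. No member met this rule with a difference of at least 1.5-fold, while 6.32% of all probes did so as higher and 5.58% as lower in the HP1 gamma -/- pools.

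Among cyclins, Cdk1 and the phosphatases that switch it on, 4 of 6 had a higher mean in the HP1 gamma -/- pools, and differences ran from -0.41 to 0.22 (smallest limma adjusted p = 0.86). Ccnb1, the main mitotic B-type cyclin, read 2.11 and 0.80 in the HP1 gamma -/- pools, against 1.22 and 1.24 in the wild-type pools. The wild-type pools were nearly equal and the HP1 gamma -/- pools lay on either side of them, so the difference was 0.22 with SE 0.48 (95% interval -1.06 to 1.5, limma adjusted p = 0.96). The other 2 probes of Ccnb1 also had the HP1 gamma -/- pools on either side of both wild-type pools, with 1.45 and 0.53 against 0.97 and 0.78 on one, and 1.02 and -0.30 against 0.30 and 0.18 on the other. Ccnb2, the second B-type cyclin, averaged 4.42 ± 0.38 in HP1 gamma -/- pools and 4.37 ± 0.05 in wild-type pools (SD, n = 2 each). Ccna2, the cyclin of S phase and G2, averaged 2.94 ± 0.31 and 2.86 ± 0.03 in the same order. Cdk1 went the other way between pools, at 1.59 and 1.82 in HP1 gamma -/- pools against 1.85 and 1.70 in wild-type pools, a difference of -0.07. Cdc25b, which starts Cdk1 activation, read 1.11 and 1.10 in HP1 gamma -/- pools against 0.90 and 1.02 in wild-type pools. These pools did not overlap, but the difference was 0.15 (limma adjusted p = 0.92). On a second tested Cdc25b probe they overlapped, at -0.36 and -0.11 in HP1 gamma -/- pools against -0.51 and -0.32 in wild-type pools. Cdc25c, which acts in the same step, read -1.54 and -2.39 in HP1 gamma -/- pools against -1.48 and -1.63 in wild-type pools. Only HP1 gamma -/- replicate 2 was low, and the second Cdc25c probe differed by 0.20 where this one differed by -0.41 (limma adjusted p = 0.86), so the direction depends on the probe.

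Mitotic kinases and their partners differed by -0.17 to 0.16. Plk1, the polo kinase of mitotic entry and spindle assembly, read 4.72 and 4.60 in HP1 gamma -/- pools against 4.54 and 4.45 in wild-type pools. All 4 values lay within a narrow band and the groups did not overlap, with a difference of 0.16 and SE 0.19 (limma adjusted p = 0.91). Aurka, the Aurora kinase of spindle poles, averaged 4.34 ± 0.51 in HP1 gamma -/- pools and 4.22 ± 0.06 in wild-type pools, and its activator Tpx2 averaged 1.70 ± 0.11 and 1.59 ± 0.11 (SD, n = 2 each). Aurkb, the kinase of the chromosomal passenger complex, read 1.90 and 1.16 in HP1 gamma -/- pools against 1.66 and 1.73 in wild-type pools. Its difference of -0.17 with SE 0.31 (limma adjusted p = 0.96) came with HP1 gamma -/- pools on either side of the wild-type pools. Birc5, or survivin, which belongs to the same complex, read 6.49 and 6.15 in HP1 gamma -/- pools against 6.47 and 6.38 in wild-type pools. It differed by -0.10 (limma adjusted p = 0.97), and HP1 gamma -/- replicate 1 stood beside the higher wild-type pool.

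The 4 spindle checkpoint genes, which delay anaphase until chromosomes are attached, differed by 0.0060 to 0.14, each with a higher mean in the HP1 gamma -/- pools. Bub1, a kinetochore kinase, averaged 2.04 ± 0.48 in HP1 gamma -/- pools and 1.94 ± 0.05 in wild-type pools, and Mad2l1, which holds back Cdc20, averaged 0.52 ± 0.48 and 0.44 ± 0.24. Bub1b (BubR1) averaged 0.36 ± 0.08 and 0.35 ± 0.14, and Ttk (Mps1), the kinase that starts the checkpoint signal, averaged -2.69 ± 0.11 and -2.82 ± 0.23 (SD, n = 2 each, HP1 gamma -/- first in each pair). None of the 4 passed (smallest limma adjusted p = 0.95).

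Subunits of the anaphase-promoting complex are not among these genes, but 2 genes whose products act with it are. Both had their largest value in HP1 gamma -/- replicate 1, and Ube2c had the largest difference of the 29. Ube2c, the ubiquitin-conjugating enzyme that works with the complex, read 3.47 and 3.22 in HP1 gamma -/- pools against 2.88 and 2.96 in wild-type pools. Both HP1 gamma -/- pools lay above both wild-type pools, by 0.42 on average with SE 0.21, or 1.34-fold (95% interval -0.14 to 0.98, limma adjusted p = 0.75). With 1 array left out in turn its difference lay between 0.29 and 0.55. Cdc20, the activator of the complex, read 5.25 and 4.75 in HP1 gamma -/- pools against 4.78 and 4.69 in wild-type pools. HP1 gamma -/- replicate 2 fell between the wild-type values, and the difference was 0.26 with SE 0.25 (limma adjusted p = 0.88).

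Chromosome and kinetochore genes differed by -0.18 to 0.11 (smallest limma adjusted p = 0.93). Mki67, whose product Ki-67 coats mitotic chromosomes and marks cycling cells, read 5.12 and 5.20 in HP1 gamma -/- pools against 5.16 and 5.24 in wild-type pools. The 4 pools were nearly equal, with a difference of -0.05 and SE 0.19 (95% interval -0.56 to 0.47, limma adjusted p = 0.99). Top2a, the topoisomerase that untangles sister chromatids, averaged 2.04 ± 0.33 in HP1 gamma -/- pools and 1.95 ± 0.16 in wild-type pools. Cenpa, the histone variant of centromeres, averaged 2.49 ± 0.38 and 2.41 ± 0.14, and Cenpf, a kinetochore protein, averaged 2.25 ± 0.42 and 2.14 ± 0.07. Cenpe, a kinetochore motor, averaged 3.87 ± 0.37 in HP1 gamma -/- pools and 4.05 ± 0.05 in wild-type pools (SD, n = 2 each), and its other 2 probes also had lower means in the HP1 gamma -/- pools, by -0.20 and -0.16.

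Of the spindle motors and spindle-binding proteins, Kif11 (Eg5), the motor that separates spindle poles, read -0.48 and -0.23 in HP1 gamma -/- pools against -0.50 and -0.63 in wild-type pools. The groups did not overlap and the difference was 0.21 (limma adjusted p = 0.89). A second Kif11 probe read -0.81 and -1.55 in HP1 gamma -/- pools against -0.60 and -0.73 in wild-type pools, a difference of -0.51 (limma adjusted p = 0.80), so the 2 probes of this gene oppose each other. Nusap1, a microtubule-bundling protein, averaged 2.33 ± 0.29 in HP1 gamma -/- pools and 2.16 ± 0.16 in wild-type pools (SD, n = 2 each). Hmmr, a spindle-associated hyaluronan receptor, read 2.53 and 2.38 in HP1 gamma -/- pools against 2.57 and 2.54 in wild-type pools. It was the gene with both HP1 gamma -/- pools below both wild-type pools, by -0.09 (limma adjusted p = 0.96). On a second Hmmr probe the groups overlapped, at 1.67 and 0.97 in HP1 gamma -/- pools against 1.63 and 1.54 in wild-type pools. Of the 12 genes with more than 1 tested probe, all probes had the same sign for 7. The exceptions were Bub1, Cdc25c, Ect2, Kif11 and Top2a.

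Genes of the spindle midzone and of cytokinesis, the division of the cell body, held the widest spread between the HP1 gamma -/- pools. Anln, the cleavage-furrow scaffold anillin, read -0.0011 and -1.35 in HP1 gamma -/- pools against -0.27 and -0.29 in wild-type pools. HP1 gamma -/- replicate 2 alone was low, and the difference of -0.40 had an SE of 0.49 (95% interval -1.71 to 0.92, limma adjusted p = 0.92). Ect2, the exchange factor that activates RhoA at the furrow, read 1.99 and 0.74 in HP1 gamma -/- pools against 1.32 and 1.09 in wild-type pools. Kif20a, a motor of the midzone, read 3.62 and 2.66 in HP1 gamma -/- pools against 3.05 and 2.86 in wild-type pools. In both genes the HP1 gamma -/- pools lay on either side of the wild-type pools, and the differences were 0.16 with SE 0.47 and 0.18 with SE 0.38 (limma adjusted p = 0.98 and 0.96). Kif23, a motor of the same midzone, was the exception, at 0.33 and 0.30 in HP1 gamma -/- pools against 0.0056 and 0.61 in wild-type pools, where the wild-type pools were the wider pair.

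**Figure D3:**
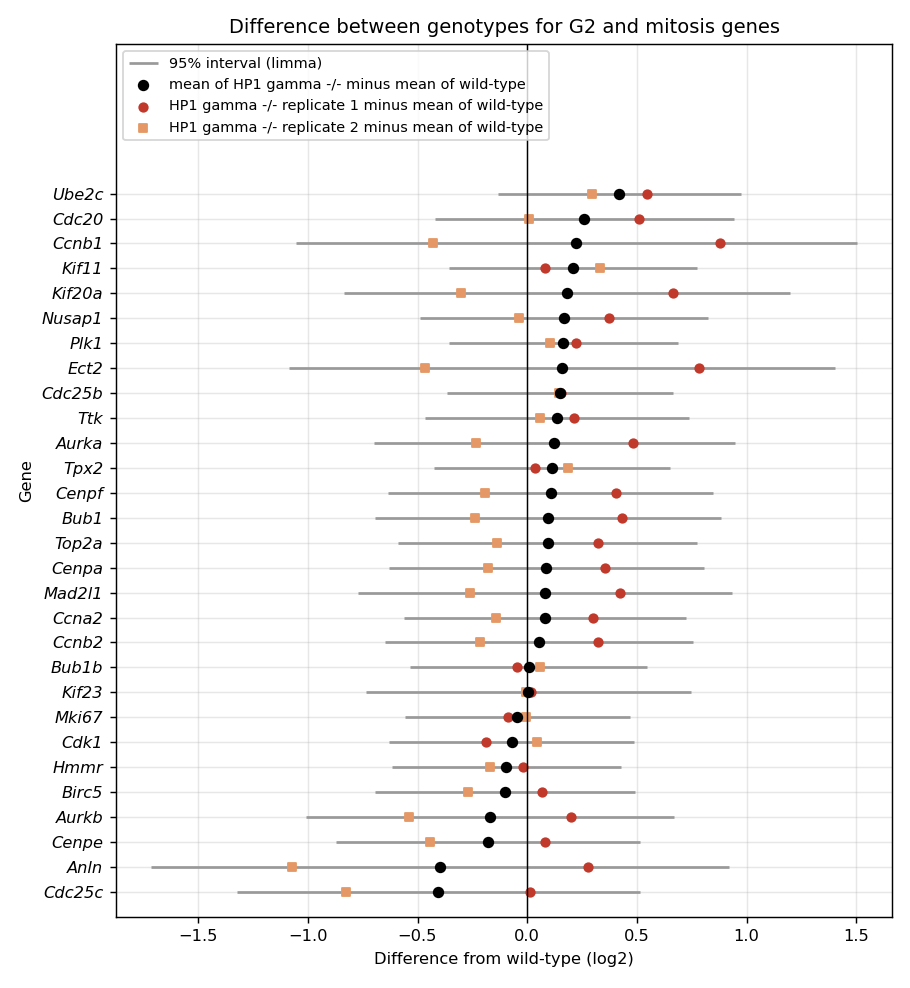
For each gene, the black point is the mean of the HP1 gamma -/- pools minus the mean of the wild-type pools (log2) with limma's 95% interval as a grey line, and the red circle and orange square are HP1 gamma -/- replicates 1 and 2 minus the wild-type mean. All 29 intervals include 0, from Ube2c at 0.42 to Cdc25c at -0.41, and for Ccnb1, Ect2, Kif20a and Anln the circle and square lie far apart.

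Relative to the 75th percentile, the HP1 gamma -/- pools placed the median of these genes on opposite sides of wild-type, and with spike-in scaling both placed it below. Replicate 1 lay above both wild-type pools for 22 of 29 genes, where 39.0% of all probes did, and below both for 3, where 42.6% did. Replicate 2 lay above both wild-type pools for 5, where 33.7% of all probes did, and below both for 17, where 50.2% did. The median difference from the wild-type mean was 0.28 for replicate 1 and -0.17 for replicate 2, against -0.02 and -0.10 over all probes. With spike-in scaling the 2 medians were -0.53 and -0.44. These comparisons share the wild-type pools. Set directly against replicate 2, replicate 1 was higher for 24 of 29 genes, where 54.6% of all probes were, with a median of 0.46 against 0.07 over all probes. The size and sign of this gap depend on the processing. With spike-in scaling replicate 1 was higher for 11 of 29 genes, where 21.8% of all probes were, and the median was -0.07 against -0.46 over all probes. That scaling shifts every probe of an array by the same amount, so the genes stay 0.39 above all probes, as before it. With normexp background correction replicate 1 was higher for 21, where 62.6% of all probes were. The median was then 0.21 against 0.17, or 0.04 above all probes. That correction adds an offset of 50 intensity units to each spot, which narrows log2 differences, most on dim probes. The part of the offset in the smaller gap was not tested. With quantile normalization, with scaling to the median of bright probes, with a median over probes and in the deposited table, the median gap lay between 0.37 and 0.47. The values that follow are again relative to the 75th percentile. By the probe used, the 5 genes that were higher in replicate 2 were Kif11, Cdk1, Tpx2, Bub1b and Mki67. The other tested probes of Kif11 (-0.81 and -1.55 in replicates 1 and 2) and Mki67 (3.63 and 3.29) were higher in replicate 1. Kif23, Cdc25b and Cenpe, higher in replicate 1 by the probe used, each had another tested probe that was higher in replicate 2. The gap was at least 2-fold for 3 genes, at 2.55-fold for Anln, 2.48-fold for Ccnb1 and 2.37-fold for Ect2, and at least 1.5-fold for 10, while the wild-type pools differed that much for 1 (Kif23). The median absolute gap was 0.46 between the HP1 gamma -/- pools and 0.10 between the wild-type pools, and over all probes these values were 0.42 and 0.16. With 1 pool on each side, this gap has no test.

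Other readouts moved with that gap. Germ cell markers with a tested probe were higher in HP1 gamma -/- replicate 1 than in replicate 2 for 10 of 10. In replicate 2, 7 of the 10 were not well above background, so their gaps are lower bounds, taken from the dimmest signal well above background there, and the median gap was at least 5.58. The signal of the 11 named germ cell markers, dim probes included, was summed in multiples of the array's 75th percentile. It was 202 and 1.32 in HP1 gamma -/- replicates 1 and 2, against 48.8 and 15.4 in wild-type replicates 1 and 2. Dppa5a, the brightest of them on every array, read 7.45 and -0.84 in HP1 gamma -/- pools against 5.37 and 3.66 in wild-type pools. It made up most of the sum except in HP1 gamma -/- replicate 2. Most stromal markers ran the other way, with a median gap of -3.27. Of 10 tested, 1 was higher in replicate 1 (Postn, by 3.90). Their summed signals were 12.9 and 95.5 in HP1 gamma -/- replicates 1 and 2, against 26.6 and 11 in wild-type replicates 1 and 2. The 12 named gonadal somatic markers, dim probes included, summed to 11.3 and 22.3 in HP1 gamma -/- pools against 11.4 and 7.81 in wild-type pools. Of the 6 tested, 2 were higher in replicate 1. The median gap was -0.32 for endothelial, 0.16 for leukocyte and -1.19 for erythroid markers. The array signal was also lowest in HP1 gamma -/- replicate 1 and highest in replicate 2. The part of cell composition or of array signal in the gap of the mitotic genes was not tested. Between the wild-type pools, germ cell marker sums, made up mostly of Dppa5a, were 48.8 and 15.4. The median gap of the tested markers between these pools was 1.42. The mitotic genes there differed by a median of 0.07, against -0.01 over all probes. They were higher in wild-type replicate 1 for 18 of 29, where 10840 of 22438 probes were. Germ cell markers lay much closer in these pools than in the HP1 gamma -/- pools, and no relation between the gaps was tested.

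**Figure D4:**
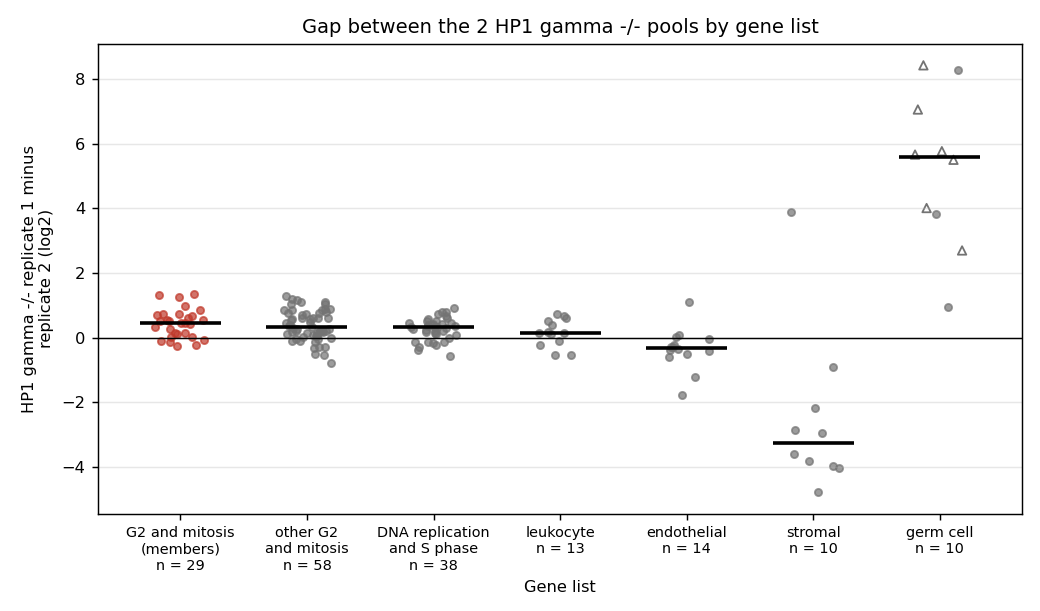
Each point is a gene, plotted as HP1 gamma -/- replicate 1 minus replicate 2 (log2), for the G2 and mitosis genes in red and 6 other lists in grey, with n tested genes under each name and the list's median as a bar. Open triangles are lower bounds for 7 germ cell markers that were not well above background in replicate 2. At the 75th percentile scaling shown, the medians are 0.46 for the 29 mitotic genes, 0.32 for both other cell cycle lists, at least 5.58 for germ cell markers and -3.27 for stromal markers.

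Of the 60 further genes of the pathway, 58 had a tested probe, all well above background on all arrays, and limma called 0 of them, with 0 at an unadjusted p under 0.05. Relative to the 75th percentile, the median difference was 0.03, against -0.06 over all probes. The mean was higher in the HP1 gamma -/- pools for 33 and lower for 25, where 9353 of 22438 probes were higher. On the same scale HP1 gamma -/- replicate 1 exceeded replicate 2 in 46 of 58 genes, where 54.6% of all probes did. The median gap was 0.32, against 0.07 over all probes, and is given at this scaling only. Foxm1, the transcription factor that drives late cell cycle genes, read 0.70 and 0.54 in HP1 gamma -/- pools against 0.46 and 0.67 in wild-type pools. Mybl2 (B-Myb), which acts on the same promoters with the MuvB complex, read 2.12 and 1.00 in HP1 gamma -/- pools against 0.90 and 0.66 in wild-type pools. Both HP1 gamma -/- pools were above both wild-type pools, replicate 1 by far the most, and the difference of 0.78 had an SE of 0.43 (95% interval -0.36 to 1.92, limma adjusted p = 0.78). The MuvB subunits Lin9 and Lin37 differed by -0.02 and 0.49 (limma adjusted p = 0.99 and 0.76). Ccnf (cyclin F) and Fzr1 (Cdh1, which activates the anaphase-promoting complex after mitosis) differed by 0.41 and 0.34 (limma adjusted p = 0.78 and 0.82). Wee1, the kinase that restrains Cdk1, read -1.35 and -2.52 in HP1 gamma -/- pools against -1.73 and -2.21 in wild-type pools, and Fbxo5 (Emi1), which inhibits the anaphase-promoting complex, differed by -0.01. Pkmyt1 had no named probe.

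DNA replication and S phase genes, the nearest list in function, were read beside these. Relative to the 75th percentile, of 38 tested, 21 were higher and 17 lower in the HP1 gamma -/- pools, where 9353 of 22438 probes were higher. The median difference was 0.02, against -0.06 over all probes, and limma called 0, with 0 at an unadjusted p under 0.05. The smallest p-values belonged to Cdc45, part of the replicative helicase, and Rfc3, part of the clamp loader, which differed by 0.39 and 0.27 (limma adjusted p = 0.80 and 0.84). On that scale HP1 gamma -/- replicate 1 exceeded replicate 2 for 29 of 38, where 54.6% of all probes did. The median gap was 0.32, against 0.07 over all probes, and is given at this scaling only. The difference between these lists was not tested.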

How the data were processed

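RNA of 4 pools (4 ng each) was amplified, labelled with Cy3 and hybridised to 4 arrays, per the labels' protocols. Per the file headers, intensity values were extracted with Agilent Feature Extraction 10.7.3.1, corrected for background and spatial trend array by array but not scaled across them. The deposited value table repeats these intensity values after rounding by the authors (largest deviation 0.50%), linear and uncentred. Column medians there came to 14.5 and 33.4 in HP1 gamma -/- replicates 1 and 2, and 20.6 and 22.6 in wild-type replicates 1 and 2. All arrays lay on 1 slide scanned once. Computed here were log2 processed signals minus each array's 75th percentile over 43379 non-control spots. Outlier-marked spots (83 to 104 per array) were dropped, which removed 21 of 41174 probes, and spots of a probe were averaged. Probes entered the test when Feature Extraction marked them as above background on the 2 arrays of either genotype (22438), using limma 3.58.1 in R 4.3.3 (lmFit, eBayes, no covariate, two-sided, p-values adjusted by Benjamini-Hochberg across these probes, threshold 0.05). The fit had 2 residual degrees of freedom and a prior of 2.43. Probes were named through unversioned RefSeq accessions (26877 of 41153 probes). The number of arrays limits precision. In simulated data for 2 against 2 arrays on 22438 probes, genes changed 2-fold were recovered in 0% of cases and those changed 4-fold in 7.0%, rising to 78.0% at 16-fold and 92.8% at 64-fold.

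All members are named by rule, as are Cbx3, fixed regulators and the 4 further pathway genes and 2 replication genes with the smallest unadjusted p. Members, lists and roles were chosen with earlier results of these data known. Normexp used an offset of 50 and median spot signals, because the files used here hold no mean spot signal. The labels give same-numbered pools only a shared number, and they were not treated as pairs. Deviations of the replicates from their group means correlated at 0.07 across probes, which cannot show that such pools share nothing else. Germ cell markers were higher in replicate 1 than in replicate 2 for 10 of 10 tested in each genotype. Alternatives were 3 other scalings, normexp, 2 other filters, a median over probes, the deposited table, an intensity trend, leaving out each pool and a replicate block. The gap between the HP1 gamma -/- pools and the shares of all probes under these settings, and the bound for dim probes, were added after seeing the data.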

Additional observations from a re-analysis of the deposited data

How the results depend on the processing

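No G2 and mitosis gene and no further gene of the pathway passed the threshold under any alternative run, and with a replicate block the counts were likewise 0 and 0, with 4 members not overlapping as higher and 1 as lower. The smallest adjusted p of a member ranged from 0.12, without HP1 gamma -/- replicate 1, to 1.00. Scaling to 7 spiked-in control probes moved the median of all probes to -0.60 and that of the members to -0.45. This scaling shifts every probe of an array by the same amount, so the members stay 0.15 above all probes by construction. There 0 members were higher and 22 lower without overlap (3.25% and 61.7% of all probes), the median differences of HP1 gamma -/- replicates 1 and 2 were -0.53 and -0.44, and 21 members turned sign, namely Ccnb1 at -0.32, Ccnb2 at -0.49, Ccna2 at -0.46, Cdc20 at -0.28, Plk1 at -0.38, Aurka at -0.42, Bub1 at -0.44, Bub1b at -0.53, Ttk at -0.41, Top2a at -0.45, Kif11 at -0.33, Kif20a at -0.36, Kif23 at -0.53, Cenpa at -0.45, Cenpf at -0.43, Nusap1 at -0.37, Tpx2 at -0.43, Ube2c at -0.12, Cdc25b at -0.39, Ect2 at -0.38 and Mad2l1 at -0.46. Members lower without overlap numbered 0 with quantile normalization, with scaling to the median of bright probes and with a median over probes, and 3 with normexp, where 24.2%, 22.3%, 22.9% and 16.9% of all probes were. With the median over its probes, Kif11 differed by -0.15. With each pool left out in turn, 5 to 22 members were higher and 3 to 17 lower without overlap. Without HP1 gamma -/- replicate 1 they were 5 and 17, where 33.7% and 50.2% of all probes were, and without replicate 2 they were 22 and 3, where 39.0% and 42.6% were. Without wild-type replicate 1 they were 7 and 4 (22% and 34.2%), and without wild-type replicate 2 they were 7 and 3 (23.3% and 31.2%). The median difference ranged from -0.17 to 0.28, and in HP1 gamma -/- replicate 1 alone from 0.25 to 0.28 and in replicate 2 alone from -0.18 to -0.15. The members that turned sign when a pool was left out ranged as follows: Ccnb1 -0.43 to 0.88, Ccnb2 -0.22 to 0.32, Cdk1 -0.19 to 0.044, Ccna2 -0.14 to 0.30, Aurka -0.23 to 0.48, Aurkb -0.54 to 0.20, Bub1 -0.24 to 0.43, Bub1b -0.092 to 0.10, Ttk -0.030 to 0.30, Top2a -0.14 to 0.32, Kif20a -0.30 to 0.66, Kif23 -0.30 to 0.31, Cenpa -0.18 to 0.35, Cenpe -0.44 to 0.082, Cenpf -0.19 to 0.41, Nusap1 -0.038 to 0.37, Birc5 -0.27 to 0.068, Cdc25c -0.83 to 0.015, Ect2 -0.47 to 0.78, Anln -1.07 to 0.28 and Mad2l1 -0.26 to 0.42. The 21 sign turns under spike-in scaling follow from its shared shift of each array and are not separate results for single genes. The cause of the other changes was not tested. Among the alternative values of single members, 358 kept their direction and side of the threshold and 48 turned sign. All 29 members were well above background on every array.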

Other observations

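Outside the 29 measured members, several other mitotic genes stood far apart between the HP1 gamma -/- pools. They were chosen after their values were seen. Nek2, a centrosome kinase, read 0.30 and -0.98 in HP1 gamma -/- replicates 1 and 2, against -0.54 and -0.29 in wild-type replicates 1 and 2. Cdca5 (sororin), which protects sister chromatid cohesion, read 4.21 and 3.01 in HP1 gamma -/- pools against 3.44 and 3.31 in wild-type pools. Cks2, a Cdk-binding subunit, read 5.24 and 4.20 in HP1 gamma -/- pools against 4.50 and 4.40 in wild-type pools. Racgap1, which forms the midzone complex with the product of Kif23, ran the other way, at -0.64 and 0.16 in HP1 gamma -/- pools against -0.43 and -0.22 in wild-type pools. No p-value is given for these values.

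Members with the homology-region hexamer in their promoter window had, relative to the 75th percentile, a median gap between the HP1 gamma -/- pools of 0.25 (19 genes), against 0.52 for the 5 with a window and no match and 0.74 for the 5 without a promoter entry. Their median differences between genotypes were 0.10, 0.08 and 0.08 in the same order. These values were not tested.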
